A study of Mus musculus with 7 samples.

Results

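The genes described here are the MEF2 transcription factors Mef2a, Mef2c and Mef2d and the class IIa histone deacetylases Hdac4, Hdac5, Hdac7 and Hdac9 of the mouse. They were picked by their gene symbols. Of these 7 genes, 6 have a row among the 11642 rows of the table, and all 6 passed the filter of the test, a mean RPKM (reads per kilobase of exon, scaled to the size of the library) of at least 0.5. Hdac9 was not analysed here, since none of the rows used carries its symbol. Hdac5 shares its row with the microRNA gene Mir8101, which lies within it, so reads of the pair cannot be told apart.

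MEF2 proteins bind an AT-rich element in the promoters and enhancers of many muscle genes and act there together with the myogenic factors MyoD and myogenin. Class IIa HDACs bind MEF2 directly and keep its target genes silent in myoblasts. When kinases such as CaM kinase, protein kinase D or the salt-inducible kinases phosphorylate them, 14-3-3 proteins capture them, they leave the nucleus through exportin, and MEF2 is released. The pairing of both families is one of the textbook switches of muscle differentiation.

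All samples came from C2C12 cells, a line of mouse myoblasts that exit the cell cycle and fuse into myotubes when serum is withdrawn. Total RNA was sequenced on day 2 of differentiation from 2 samples transfected with 30 nM scramble siRNA (si-SCR) and from 2 samples transfected with 30 nM siRNA #1 against the long non-coding RNA lnc-SMaRT (si-SMaRT). The RNA-seq contrast rests on this 1 siRNA and on 1 cell line, and its 2 samples per group were described as separate populations of cells. A pull-down with probes against lnc-SMaRT, its control with probes for LacZ and its input gave 1 library each. The labels do not say which set of probes gave the lnc-SMaRT library. The comparison asks whether the RNA of the MEF2 and class IIa HDAC genes differed between control cells and cells depleted of lnc-SMaRT.

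The targeted RNA, annotated as Gm14635, had an RPKM of 19.1 and 15.9 in the si-SCR samples and of 2.88 and 3.65 in the si-SMaRT samples (log2 fold change -2.39, SE 0.28, adjusted p = 0.000882, limma). The effective library sizes behind the RPKM values lay between 11291255 and 14312935 reads. All 8 markers of differentiating muscle have a row, and none of the 6 endothelial and none of the 4 adipocyte markers has one. Of the 4 leukocyte markers Itgam alone has one, with an RPKM between 0.208 and 0.555. Of the 3 smooth muscle markers, Cnn1 and Smtn have a row and Myh11 has none. The RPKM lay between 1.15 and 1.87 for Cnn1 and between 8.63 and 18.8 for Smtn. The 2 si-SMaRT samples stood apart from each other in a way that followed base composition: across 10530 protein-coding genes, Spearman's rho between GC content and the log2 difference of si-SMaRT 2 over si-SMaRT 1 was -0.860, against 0.366 for the si-SCR pair. Genes are not independent replicates, and these values are given as a description. Among all 11086 tested genes, 56 passed an adjusted p of 0.05 in limma, which is 0.505%, and the median log2 fold change was 0.02. When the trend with GC content was removed from each sample by a loess fit, 484 of 10949 genes passed, which is 4.42%. Because the values depend on this step, both versions are given for each member below.

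Sequence elements that bear on the MEF2 genes and on their targets were read from the reference. The MEF2 binding site, taken as the 10-base MEF2 consensus that reads the same on both strands, was searched in RefSeq promoter windows of GRCm38.p6, which reach from 250 bases before to 50 bases after an annotated start. It was found in 3.19% of all 32851 windows, and in 3.70% of all 27025 genes with a window. Among the members, 2 of 13 windows held it, 1 at Mef2a and 1 at Hdac5. Among the muscle genes listed as MEF2 targets, 5 of 18 with a window held it. These genes were listed because they are known targets, so the share among them is not independent evidence. The following 30-base stretches show the sites of the 2 members and of 3 measured targets, 5′ to 3′ on the strand of the gene, with the MEF2 site in capitals.
Mef2a, chr7:67372841-67372870, minus strand: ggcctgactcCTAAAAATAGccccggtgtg
Hdac5, chr11:102230173-102230202, minus strand: gggtctgagcCTATTTTTAGctcggggtcg
Jun, chr4:95052236-95052265, minus strand: acatcatgggCTATTTTTAGggattgactg
Klhl41, chr2:69670047-69670076, plus strand: gagccggtgtCTATATTTAGccggtgggat
Pgam2, chr11:5803857-5803886, minus strand: ttttgtgagaCTATTTTTAAgttcagctcc

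The sites of Hdac5 and Jun have the same 10 letters, and that of Pgam2 ends in a different base. The site of Mef2a lies across the annotated start, and those of Hdac5 and Jun begin 20 and 33 bases before it. No window of Mef2c, Mef2d, Hdac4, Hdac7 or Hdac9 held these letters, which says only that they are not in these windows. The E-box, CANNTG on both strands, the element bound by MyoD and myogenin, was found in the windows of Mef2c, Hdac5, Hdac7 and Hdac9, against 74.99% of all genes with a window. A match of letters does not show that a factor was bound.

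Mef2a was the most abundant member in every sample. It lies on the minus strand of chr7:67231163-67372858 (GRCm38, as for all genes here) and encodes the MEF2 factor that is found in most tissues. Its RPKM was 67.2 and 84.0 in si-SCR 1 and 2 and 92.2 and 127.5 in si-SMaRT 1 and 2. Both depleted samples lay above both controls. The mean was 75.6 ± 11.9 in si-SCR and 109.8 ± 24.9 in si-SMaRT (SD, n = 2), a ratio of 1.45. The log2 fold change was 0.53 (95% interval -0.06 to 1.11, adjusted p = 0.604, limma) and did not pass. With the GC trend removed it was 0.34 (adjusted p = 0.311, limma), and the groups then overlapped.

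Mef2c moved the other way. It lies on the plus strand of chr13:83504034-83667080 and encodes the MEF2 factor that is induced during the differentiation of skeletal muscle. Its RPKM was 4.99 and 5.20 in si-SCR 1 and 2 and 2.63 and 3.36 in si-SMaRT 1 and 2. Both depleted samples lay below both controls, which differed little from each other. The smallest whole read numbers behind these values were 427, 497, 201 and 325, and the exact Poisson 95% intervals ran from 4.53 to 5.68 RPKM over the controls and from 2.28 to 3.75 RPKM over the depleted samples. These intervals cover counting error only. The mean was 5.10 ± 0.149 in si-SCR and 2.996 ± 0.513 in si-SMaRT (SD, n = 2), 1.70 times lower in the depleted cells. The log2 fold change was -0.76 (SE 0.29, 95% interval -1.36 to -0.15), with an unadjusted p of 0.0173 and an adjusted p of 0.359 in limma, which did not pass. The 811 tested genes within 2 percentage points of its GC content had a median log2 fold change of 0.18, opposite in sign to that of Mef2c. With the GC trend removed, the log2 fold change of Mef2c was -0.95 (SE 0.19, adjusted p = 0.0334, limma). It was then the only 1 of the 6 members to pass, against 4.42% of all tested genes. Its GC content was taken over its 15715 exon bases in GENCODE M21, while its RPKM rests on 6760 bases or a whole multiple. Whether this difference affected the call was not tested. This call depended on the fit. It did not pass with the replicate number as a block and the GC trend removed (adjusted p = 0.0860, limma). It was also lost when either si-SCR sample was left out and held when either si-SMaRT sample was, with fold changes from -1.17 to -0.72 and adjusted p from 3.44e-06 to 0.379. Of all tested genes, 0.00913% and 0% passed without si-SCR 1 and 2 and 11.8% and 10.3% without si-SMaRT 1 and 2 in these fits.

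Mef2d, the MEF2 factor whose muscle-specific isoform arises by splicing, lies on the plus strand of chr3:88142372-88172086. Its RPKM was 4.74 and 7.86 in si-SCR 1 and 2 and 8.17 and 5.80 in si-SMaRT 1 and 2. The groups overlapped, and the samples of each group differed more than the groups did. The mean was 6.30 ± 2.21 in si-SCR and 6.99 ± 1.67 in si-SMaRT (SD, n = 2). The log2 fold change was 0.17 (95% interval -0.48 to 0.82, adjusted p = 0.920, limma), and it was -0.19 without si-SCR 1 and -0.07 without si-SMaRT 1. It was 0.31 with the GC trend removed (adjusted p = 0.382, limma). The values are totals of the gene and do not separate its isoforms. Mef2b, a further MEF2 gene that is not among the members, shares a row with the gene 2310045N01Rik. That row had an RPKM of 7.31, 5.39, 5.39 and 3.51 in the order si-SCR 1, si-SCR 2, si-SMaRT 1 and si-SMaRT 2, and it cannot be assigned to Mef2b.

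**Figure D1:**
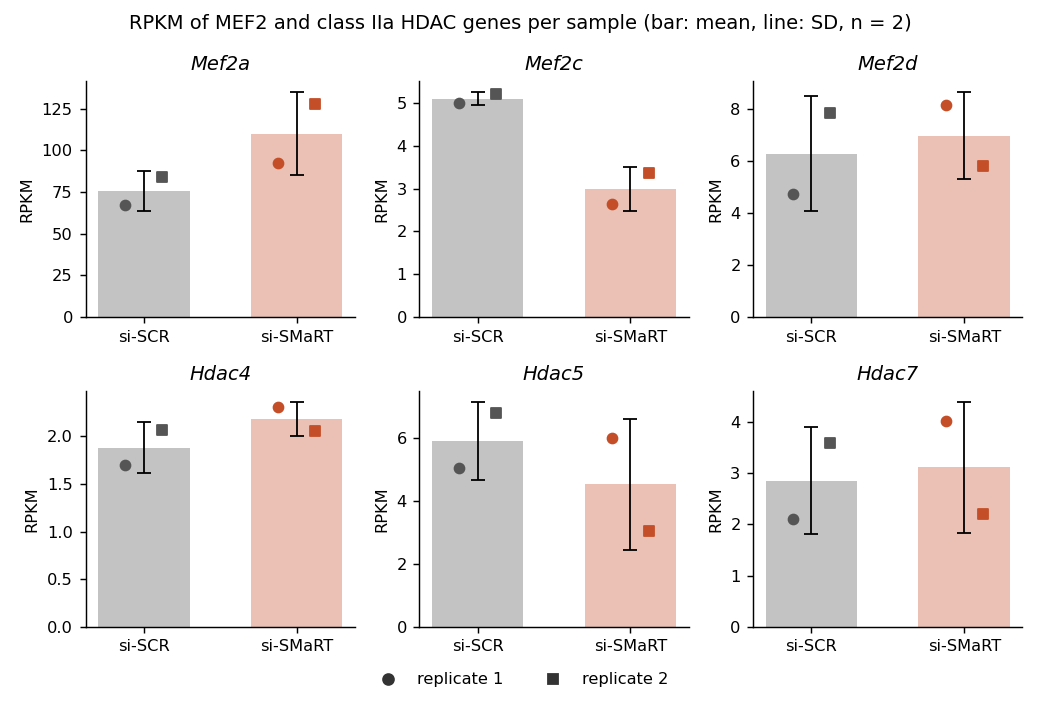
Each panel shows 1 gene with the RPKM on the y axis from 0, the mean of each group as a bar, the SD (n = 2) as a line and the samples as circles (replicate 1) and squares (replicate 2). The groups did not overlap for Mef2a, higher in si-SMaRT, and Mef2c, lower in si-SMaRT, and they overlapped for the other 4 genes.

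Among the class IIa HDACs, Hdac5 had the highest level in every sample. It lies on the minus strand of chr11:102194432-102230166 and encodes a repressor that is exported from the nucleus when muscle cells differentiate. Its RPKM was 5.03 and 6.78 in si-SCR 1 and 2 and 6.002 and 3.06 in si-SMaRT 1 and 2. Only si-SMaRT 2 lay below the controls. The mean was 5.91 ± 1.24 in si-SCR and 4.53 ± 2.08 in si-SMaRT (SD, n = 2). The log2 fold change was -0.44 (95% interval -1.13 to 0.26, adjusted p = 0.767, limma) and -0.26 (adjusted p = 0.353, limma) with the GC trend removed. For the deposited values it was -0.91 without si-SMaRT 1 and 0.04 without si-SMaRT 2, so that direction rested on si-SMaRT 2. Once the GC trend was removed, the groups did not overlap, and leaving out single samples gave fold changes from -0.40 to -0.13.

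Hdac4 lies on the minus strand of chr1:91928779-92195699, and it encodes a repressor that accumulates in muscle after loss of the nerve. Its RPKM was 1.70 and 2.07 in si-SCR 1 and 2 and 2.31 and 2.06 in si-SMaRT 1 and 2. The value of si-SMaRT 2 fell within the range of the controls. The mean was 1.88 ± 0.265 in si-SCR and 2.18 ± 0.178 in si-SMaRT (SD, n = 2), with a log2 fold change of 0.21 (95% interval -0.43 to 0.85, adjusted p = 0.895, limma). It was 0.20 after removal of the GC trend (adjusted p = 0.537, limma), and the groups then did not overlap.

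Hdac7 lies on the minus strand of chr15:97792664-97844502, and it is best known for its roles in endothelium and thymocytes. Its RPKM was 2.11 and 3.595 in si-SCR 1 and 2 and 4.02 and 2.21 in si-SMaRT 1 and 2. Each group held 1 high and 1 low sample, and the groups overlapped. The mean was 2.85 ± 1.05 in si-SCR and 3.12 ± 1.28 in si-SMaRT (SD, n = 2). The log2 fold change was 0.11 (95% interval -0.62 to 0.84, adjusted p = 0.960, limma), and it was -0.26 without si-SCR 1 and -0.31 without si-SMaRT 1. After removal of the GC trend it was 0.28 (adjusted p = 0.427, limma). The endothelial markers Pecam1, Cdh5, Kdr, Tek, Emcn and Cldn5 have no row of values, as given above.

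Over the members, 0 of the 6 tested genes passed an adjusted p of 0.05 in limma, against 0.505% of all tested genes. Only Mef2c had an unadjusted p under 0.05, against 9.09% of all tested genes. With voom on the read numbers recovered from the RPKM values, 0 members passed as well, against 0.931% of all tested genes. With the GC trend removed, 1 of the 6 passed in limma, Mef2c, against 4.42% of all tested genes. The groups did not overlap for 2 of the 6 members, 1 higher and 1 lower, against 40.7% of all tested genes, of which 20.2% were higher and 20.4% lower. Without the GC trend they did not overlap for 3 members, Mef2c, Hdac4 and Hdac5, against 56.9% of all tested genes. These shares without overlap do not set the members apart from other genes. The intervals above leave room for changes of Mef2a by up to 1.11 and of Hdac5 by down to -1.13 on the log2 scale, so changes up to these sizes could have gone undetected with 2 samples per group.

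**Figure D2:**
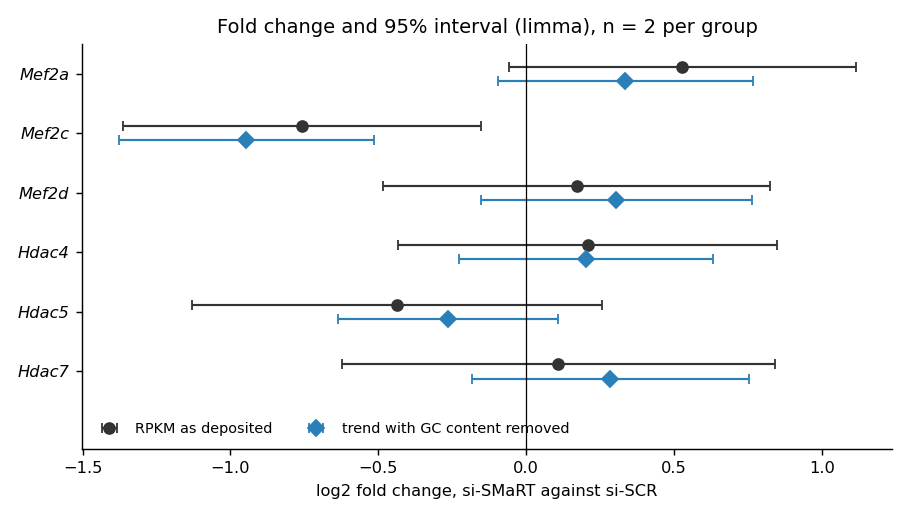
The x axis gives the log2 fold change of si-SMaRT against si-SCR, and the lines are 95% intervals from limma (n = 2 per group) for the RPKM values as deposited (black circles) and with the GC trend removed (blue diamonds). Only the intervals of Mef2c lie entirely on 1 side of 0, from -1.36 to -0.15 and from -1.38 to -0.51.

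The spread between the 2 si-SMaRT samples differed between the members, and it ran in the order of their GC content. Mef2a (38.4% GC) and Mef2c (38.6%) were higher in si-SMaRT 2 than in si-SMaRT 1, by 0.47 and 0.34 on the log2 scale. Hdac4 (49.96%) differed by -0.16, Mef2d (55.1%) by -0.49, Hdac7 (59.8%) by -0.83 and Hdac5 (58.3% for its row) by -0.95. Of these neighbours, Hdac5 and Hdac7 were the only pair out of order. Genes of like GC content, within 2 percentage points, had a median difference of 0.69 around Mef2a, 0.68 around Mef2c, -0.10 around Hdac4, -0.53 around Mef2d, -0.87 around Hdac7 and -0.77 around Hdac5. Mef2d, Hdac4, Hdac5 and Hdac7 lay within the quartiles of these genes, while Mef2a and Mef2c lay below the lower quartiles of 0.55 and 0.53. GC content here is that of the GENCODE M21 exons, whose length for Mef2a and Mef2c differs from that behind their RPKM. After removal of the trend, the largest of the differences between the 2 si-SMaRT samples was -0.45, for Mef2c. What gave the 2 samples different trends was not tested.

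**Figure D3:**
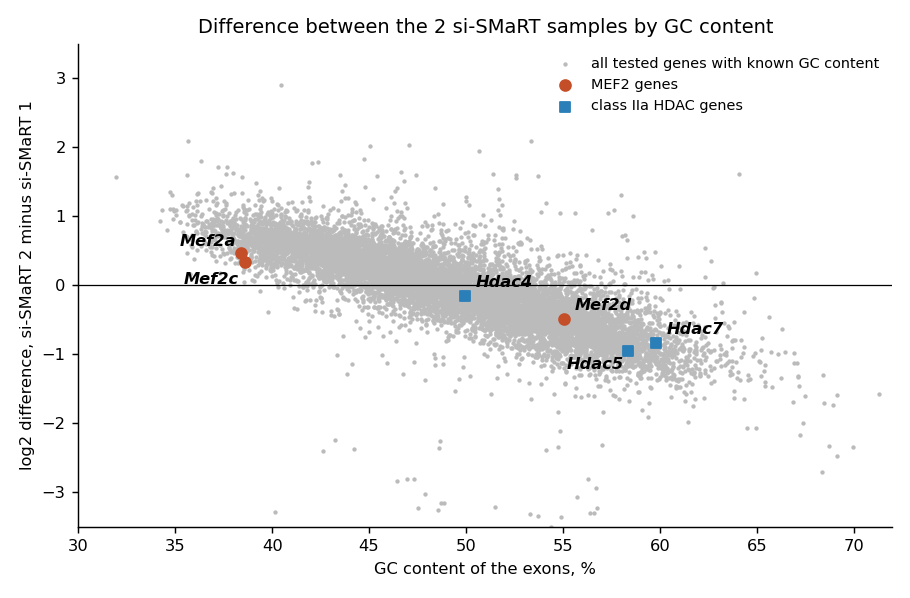
The x axis gives the GC content of the exons in percent and the y axis the log2 difference between si-SMaRT 2 and si-SMaRT 1, with 10941 tested genes in grey (15 lie outside the axes), MEF2 genes as red circles and class IIa HDAC genes as blue squares. The grey points fall from left to right, and the members run from 0.47 for Mef2a to -0.95 for Hdac5.

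When each of the 4 samples was left out in turn, the calls of the members moved with the si-SMaRT samples. Without si-SMaRT 1, Hdac5 (-0.91, adjusted p = 0.00117), Mef2c (-0.59, adjusted p = 0.0494) and Mef2a (0.76, adjusted p = 0.00326) passed in limma, but 26.2% of all tested genes did so too. Without si-SMaRT 2, Mef2c passed (-0.93, adjusted p = 0.00404), and so did 8.49% of all tested genes. Without si-SCR 1 or 2, no member passed, and 0.216% and 0.271% of all tested genes did. In these fits the single remaining si-SMaRT or si-SCR sample is assumed to vary like the pair of the other group.

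As RPKM is scaled by gene length, the members can be ordered by level. In si-SCR, Mef2a was followed by Mef2d, Hdac5, Mef2c, Hdac7 and Hdac4. The levels of Mef2d, Hdac5 and Mef2c overlapped and are not ordered beyond their spread. The mean of Mef2a exceeded that of 93.6% of all rows, that of Mef2c exceeded 42.0% and that of Hdac4 exceeded 20.6%. The summed RPKM of the 3 MEF2 genes was 76.9 and 97.1 in si-SCR and 103 and 137 in si-SMaRT. Mef2a made up 87.4% and 86.5% of this sum in si-SCR and 89.5% and 93.3% in si-SMaRT. Mef2c made up 6.49% and 5.36% in si-SCR and 2.56% and 2.46% in si-SMaRT. The summed RPKM of Hdac4, Hdac5 and Hdac7 was 8.84 and 12.4 in si-SCR and 12.3 and 7.33 in si-SMaRT, so that the groups overlapped. The RPKM of Mef2a rests on an exon length of 6283 bases and that of Mef2c on 6760 bases or on whole multiples of these. The exons of both genes are longer in GENCODE M21, with 14681 and 15715 bases, so their levels relative to other genes depend on the gene model. The GC content used for both genes is that of these M21 exons.

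The ratio of Mef2a to Mef2c separated the groups, as it had to, since Mef2a was higher and Mef2c lower in both depleted samples. It was 13.5 and 16.1 in si-SCR 1 and 2 and 35.02 and 37.9 in si-SMaRT 1 and 2. The samples of each group lay close together, including the 2 si-SMaRT samples, whose GC trends differed. Both genes were given nearly the same GC content. Removal of the trend thus took nearly the same amount from each and could hardly change their ratio. The log2 ratio rose from 3.86 ± 0.19 to 5.14 ± 0.09 (SD, n = 2), a difference of 1.29, and of 1.28 with the GC trend removed. The exact two-sided permutation test gave p = 0.333, which is the smallest p that 2 samples against 2 can give, so this test could not reach 0.05. This ratio was chosen with earlier results of these data known.

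**Figure D4:**
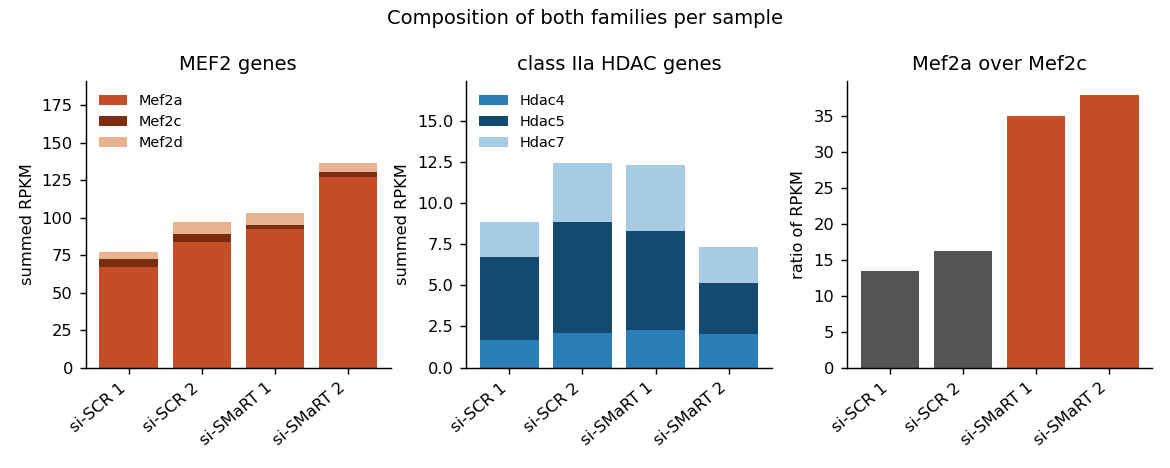
The left and middle panels stack the RPKM of the MEF2 genes and of the class IIa HDAC genes in each sample, and the right panel gives the ratio of Mef2a to Mef2c, all from 0. The ratio is 13.5 and 16.1 in the si-SCR samples and 35.02 and 37.9 in the si-SMaRT samples, while the sums of the HDAC genes overlap between the groups.

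The muscle genes that MEF2 is known to activate were mostly lower in si-SMaRT, although few passed the test. Of 26 listed genes, 22 have a row and 21 were tested, and their median log2 fold change was -0.73 against 0.02 over all tested genes. The fold change was below 0 for 19 and above 0 for 2. The groups did not overlap in 18 genes that were lower in si-SMaRT, against 20.4% of all tested genes in this direction, and in 1 that was higher. This list was written with earlier results of these data known, so these shares and those below describe it and do not test it. In limma, 1 of 21 passed an adjusted p of 0.05, and it was lower, as were 0.325% of all tested genes. This gene was Mb, myoglobin, the oxygen store of muscle, with an RPKM of 349 and 247 in si-SCR and 96.4 and 71.5 in si-SMaRT (log2 fold change -1.82, SE 0.29, adjusted p = 0.00852). It did not pass when si-SCR 1 was left out, when the number of genes of the list past the threshold was 0. Ckm, the muscle creatine kinase, had an RPKM of 676 and 641 in si-SCR and 381 and 201 in si-SMaRT, with a log2 fold change of -1.25 that did not pass (adjusted p = 0.106, limma). Myoz1, a calcineurin-binding protein of the Z-disc, had an RPKM of 1.77 and 1.97 in si-SCR and 0.890 and 0.756 in si-SMaRT, with a log2 fold change of -1.10 (adjusted p = 0.179, limma).

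With the GC trend removed, the median of the list was -0.75, and 11 of the 21 genes passed in limma. Of these, 10 were lower in si-SMaRT, as were 2.61% of all tested genes, and 1 was higher, as were 1.81%. The genes that passed lower were Ckm, Mb, Myom1, Smyd1, Hrc, Myoz1, Myoz2, Lmod3, Klhl41 and Pgam2, which belong to energy metabolism (Ckm, Mb and Pgam2), the sarcomere and its turnover (Myom1, Myoz1, Myoz2, Lmod3 and Klhl41), the sarcoplasmic reticulum (Hrc) and chromatin (Smyd1). Jun, a subunit of the AP-1 factor, passed in the other direction, with an RPKM of 18.5 and 22.7 in si-SCR and 42.3 and 28.9 in si-SMaRT and a log2 fold change of 0.91 (adjusted p = 0.0107, limma). Of the 3 targets whose MEF2 sites are shown above, Klhl41 and Pgam2 were thus lower and Jun higher.

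**Figure D5:**
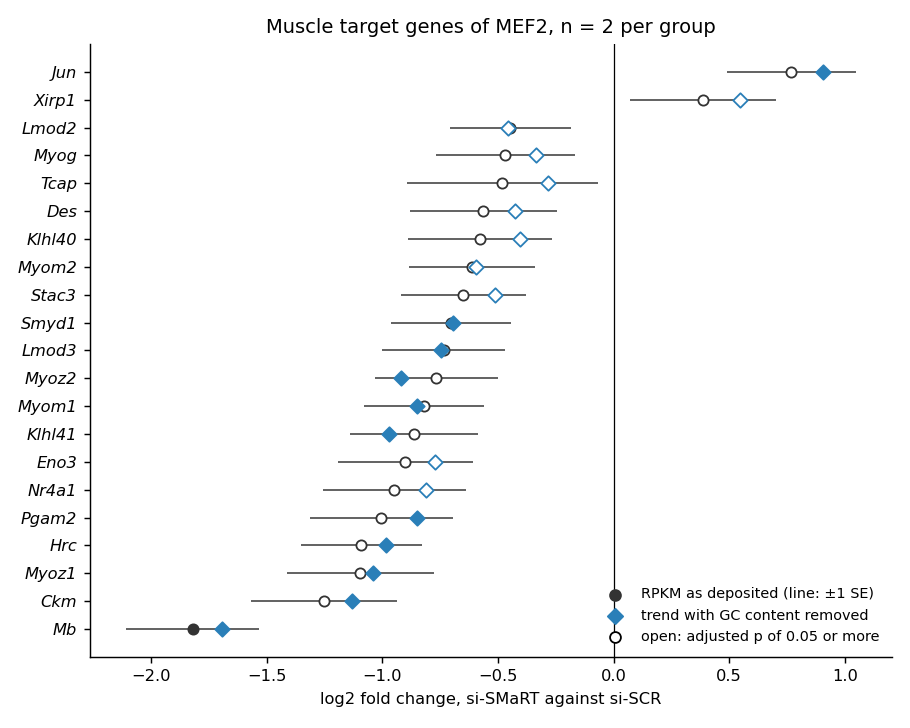
The x axis gives the log2 fold change of si-SMaRT against si-SCR (n = 2 per group) for the 21 tested muscle targets of MEF2, with ±1 SE for the deposited RPKM. Filled symbols passed an adjusted p of 0.05: Mb alone with the RPKM as deposited, and Mb, Jun and 9 others with the GC trend removed.

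The summed RPKM of the 8 markers of differentiating muscle was 8464 and 8911 in si-SCR and 6448 and 4313 in si-SMaRT, so it was lower in both depleted samples. Ckm, Des and Myog are on both lists. Of these 8 markers, Myod1 had the only fold change above 0, 0.26 on the log2 scale (adjusted p = 0.857, limma). In RNA from whole cultures, fewer cells of a type and less RNA per cell cannot be told apart, and the part of this difference in the values of Mef2c and of the MEF2 targets was not tested. Among 9 tested genes of undifferentiated myoblasts, of 12 listed, 2 passed and both were higher, as were 0.18% of all tested genes. These were Id3, an inhibitor of myogenic bHLH factors (RPKM 2.91 and 3.20 in si-SCR, 12.3 and 7.26 in si-SMaRT, log2 fold change 1.60, adjusted p = 0.0232, limma), and Ccnd1, cyclin D1 (RPKM 3.96 and 3.27, then 9.17 and 9.60, log2 fold change 1.36, adjusted p = 0.0356, limma). Neither Id3 nor Ccnd1 passed when either si-SCR sample was left out. Heyl, a Notch target of this list, had a log2 fold change of -0.75 (adjusted p = 0.395, limma), and the median of the list was 0.03.

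The genes that act on MEF2 gave no calls. Of 19 kinases, phosphatases and coactivators that activate MEF2, 18 were tested. In limma 0 passed, against 0.505% of all tested genes, and 2 had an unadjusted p under 0.05, against 9.09%. The median log2 fold change was 0.27, with 14 genes above 0. The largest changes were those of Mapk12, the muscle p38 gamma kinase (RPKM 17.1 and 15.5 in si-SCR, 9.89 and 7.99 in si-SMaRT, log2 fold change -0.86, adjusted p = 0.238), Vgll2, a cofactor of TEAD and MEF2 in muscle (0.64, adjusted p = 0.550), and Crebbp, the acetyltransferase CBP (0.62, adjusted p = 0.538). Once the GC trend was removed, Mapk12 (-0.73, adjusted p = 0.0337, limma) and Carm1, an arginine methyltransferase that acts with MEF2 (0.76, adjusted p = 0.0282, limma), passed. Of all tested genes, 4.42% passed in that fit. When si-SMaRT 1 or si-SMaRT 2 was left out, 4 genes of this list passed, and 26.2% and 8.49% of all tested genes did. With voom, 0 genes passed in this list, in that of the export machinery, in that of the corepressors and in that of the other HDACs, while 3 MEF2 targets and 0.931% of all tested genes passed.

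The machinery that moves class IIa HDACs out of the nucleus was likewise without calls. Of 24 kinases, 14-3-3 proteins and exportin, 21 were tested. In limma 0 passed and 0 had an unadjusted p under 0.05, against 0.505% and 9.09% of all tested genes. After removal of the GC trend 0 passed as well, against 4.42%. The median log2 fold change was 0.20. The largest were 0.63 for Camk1d, -0.49 for Camk2a and -0.47 for Camk1, all CaM kinases, with adjusted p between 0.596 and 0.664. Without si-SMaRT 1, 3 genes of this list passed, and without si-SMaRT 2, 1 did, when 26.2% and 8.49% of all tested genes passed.

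The partners through which class IIa HDACs repress, and the other zinc-dependent HDACs, gave no calls either. All 13 listed corepressors were tested, with a median of 0.12. In limma 0 were past the threshold or at an unadjusted p under 0.05, against 0.505% and 9.09% of all tested genes. The largest were 0.42 for Suv39h1, a methyltransferase of histone H3, 0.40 for Ncor1, the scaffold that links class IIa HDACs to HDAC3, and -0.40 for Ankra2, an ankyrin protein that binds class IIa HDACs. All 7 other zinc-dependent HDACs were tested, with a median of -0.0009. Again 0 were past the threshold or at an unadjusted p under 0.05, against the same shares of all tested genes. Hdac10 (-0.32), Hdac6 (-0.22) and Hdac11 (0.20) differed most. Hdac3, the enzyme that class IIa HDACs recruit, is on both lists and had an RPKM of 22.6 and 20.97 in si-SCR and 23.6 and 19.2 in si-SMaRT, with a log2 fold change of -0.03 (adjusted p = 0.982, limma). The depleted samples lay on either side of the controls, and its level was above that of every class IIa member in each sample.

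The genes whose profile over the 4 samples was closest to that of Mef2c, by the distance between centred log2 values, were AC168050.1 (0.0676), Rftn2 (0.0808) and Pex11a (0.0910). Rftn2, a protein of lipid rafts, had an RPKM of 5.71 and 6.38 in si-SCR and 3.09 and 3.84 in si-SMaRT. The closest to Hdac5 were Pla2g6 (0.0642), Neurl2 (0.0696) and Zfp653 (0.0866). The GC content of these 3 genes lay between 56.5% and 60.5%, near the 58.3% of the row of Hdac5. None of these 6 genes passed in limma with the deposited values, with adjusted p from 0.327 to 0.792. Without the GC trend, Rftn2 passed (log2 fold change -0.86, adjusted p = 0.0245, limma), and the others did not.

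The siRNA was also compared with the members' transcripts. Its sense strand is shown because the seed of the guide strand, bases 2 to 8, can pair with other RNAs, and the letters it pairs with are in capitals.
siRNA #1, sense strand: gagaagcagaacaAACAGAUa
In the GENCODE M21 transcripts all 21 letters were found in lnc-SMaRT alone, at bases 878 to 898 of its transcript of 1409 bases. The 7 seed-matching letters AACAGAT, searched on the transcript strand, were present in transcripts of 3 of the 7 members: in 2 of 6 of Mef2a, 8 of 10 of Hdac7 and 1 of 8 of Hdac9. They were present in 26.4% of 10935 protein-coding genes of the table, and no protein-coding transcript of Mef2c, Mef2d, Hdac4 or Hdac5 held them. Only protein-coding transcripts were searched for these 7 letters, here and in the counts above. The log2 fold change was 0.53 for Mef2a and 0.11 for Hdac7, which hold them. For those that lack them it was -0.76 for Mef2c, 0.17 for Mef2d, 0.21 for Hdac4 and -0.44 for Hdac5. Whether the seed acted on any of these RNAs was not tested.

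In the pull-down, no member gene overlapped a peak. The list of the lnc-SMaRT pull-down has 345 peaks and that of the LacZ pull-down 336. Of the 7 members, 0 had a peak of either list in an exon or an intron on the same strand by at least 1 base. The share of all genes with a peak was not worked out, so this count does not set the members apart from other genes. Among the genes of the lists above, Sik3, a salt-inducible kinase that phosphorylates class IIa HDACs, had 7 exonic peaks in the LacZ list, with p-values from 2.39e-05 to 0.00994, and 0 in the lnc-SMaRT list. Each list comes from 1 library, so the difference has no replicate check. A list of peaks does not give the depth at a gene without one, so the absence of a peak does not show that an RNA was not recovered.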

How the data were processed

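Gene expression was measured by stranded total RNA sequencing of 4 C2C12 samples. The RPKM values were made and deposited by the authors, who trimmed with Trimmomatic, discarded pairs from rRNA and tRNA (Bowtie2), aligned to GRCm38 with TopHat2, counted reads on Ensembl genes with htseq-count, scaled libraries by TMM and dropped genes of low CPM with edgeR. The p-value of each pull-down peak was deposited by the authors from Piranha. The authors called peaks of the LacZ pull-down over input, and peaks of the lnc-SMaRT pull-down both over input and over LacZ. Which of these the lnc-SMaRT list holds is not given in the sources used here.

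The test was limma 3.58.1 (R 4.3.3; trended prior) on log2(RPKM + 0.1) for rows whose mean RPKM reached 0.5, with p-values adjusted over all of them by Benjamini-Hochberg. Fold changes on this scale understate those of low genes. Read numbers were recovered as the smallest whole numbers for 11623 of 11642 rows, since values of a gene are multiples of 1 read. GENCODE M21 on GRCm38 gave GC content and coordinates, and the trend was fitted by loess (span 0.3). Peaks were overlapped with bedtools 2.31.1. The recovery of reads and the main fit were tested on simulated data without a GC trend, and the other fits were not.

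The members, gene lists and tests were chosen with earlier results of these data known. Named were all members, the genes of each list past the threshold or with its 3 largest absolute fold changes, and the 3 nearest profiles of Mef2c and Hdac5. Jun, Carm1, Hdac3 and the targets passing without the GC trend were named after their values were seen. Alternatives were other pseudocounts, filters, normalization and variance, voom, replicate blocks and left-out samples. Protein sequences were not used here. A withheld item is not reported here. The p-values measure only the spread between the samples, which may be technical.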

Additional observations from a re-analysis of the deposited data

How the results depend on the processing

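The limits are the 2 samples per group and the GC trends of the si-SMaRT pair. The number of genes past the threshold, 56, was 37 with quantile normalization, 103 with voom, 484 with the GC trend removed, and from 24 to 2908 with 1 sample left out (0, 1, 1124 and 1289 with the GC trend also removed, chosen after the data were seen). The number of members past it, 0, was 1 with the GC trend removed and from 0 to 3 with 1 sample left out. Samples with the same replicate number did not deviate together across genes (correlation -0.36, and -0.19 with the GC trend removed). With 2 samples per group, this cannot show whether the numbers mark pairs. With the replicate block, 96 genes and 0 members passed, with the block and the GC trend removed 117 genes and 0 members, and with the crossed pairing, added after the data were seen, 487 genes and 0 members.

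With 1 sample left out, the fold change of Mef2a ranged from 0.30 to 0.76, of Mef2c from -0.93 to -0.59, of Mef2d from -0.19 to 0.53, of Hdac4 from 0.07 to 0.34, of Hdac5 from -0.91 to 0.0386 and of Hdac7 from -0.31 to 0.53. With the GC trend also removed, these ranges were 0.11 to 0.56, -1.17 to -0.72, -0.0016 to 0.61, 0.07 to 0.33, -0.40 to -0.13 and -0.0039 to 0.57. Mef2c was -0.95 with the GC trend removed. The other pseudocounts and filters, the prior without trend, voom and the replicate block changed no member's direction or call. The difference of the Mef2a to Mef2c log2 ratio was 1.14 with a pseudocount of 1.

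With 1 sample left out, from 0 to 17 MEF2 targets passed, with medians from -0.88 to -0.69. For the MEF2 activators these were 0 to 4 and 0.20 to 0.44, for the HDAC kinases 0 to 3 and 0.0141 to 0.28, for the corepressors 0 to 0 and 0.0465 to 0.25, for the other HDACs 0 to 1 and -0.16 to 0.11, and for undifferentiated myoblasts 0 to 5 and 0.0725 to 0.44. With the GC trend removed, 11 MEF2 targets and 2 MEF2 activators passed, against 4.42% of all tested genes. Of the undifferentiated myoblast genes, 1 passed with quantile normalization and 1 with the replicate block, when 37 and 96 of all 11086 tested genes did. The cause of these shifts was not tested. The count of members with a peak stayed at 0 for peaks with p under 0.001 and for an overlap of 50%.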
